A study of Mus musculus with 6 samples.

Results

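Transcripts of 6 leukocyte integrin subunits, Itgam, Itgax, Itgal, Itgb2, Itgb7 and Itga4, were taken by gene name from RNA sequencing of mouse lung endothelial cells (MLECs), and all 6 were found among 17450 gene symbols. Integrins are surface receptors made of 1 alpha and 1 beta chain that hold cells to other cells and to matrix. The leukocyte integrins are the ones through which blood cells arrest on endothelium, leave vessels and take up opsonised particles. The beta-2 chain Itgb2 (CD18) pairs with Itgal (CD11a) to form LFA-1, with Itgam (CD11b) to form Mac-1 or complement receptor 3, and with Itgax (CD11c) to form complement receptor 4. Itga4 (CD49d) pairs with Itgb1 to form VLA-4, which binds Vcam1, or with Itgb7 to form the gut-homing receptor of Madcam1. In mouse lung, resident alveolar macrophages are known for abundant CD11c and little CD11b, whereas monocytes and interstitial macrophages carry CD11b.

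The HEY1-3KR KI group held 3 libraries of MLECs from Hey1 iEC-KO mice with the HEY1-3KR iEC-KI allele, and the HEY1-WT KI group held 3 libraries of MLECs from Hey1 iEC-KO mice with the HEY1-WT iEC-KI allele. HEY1 is a transcriptional repressor that acts within the Notch pathway, and the series title concerns its SUMOylation. By label, both groups therefore carry the Hey1 knockout and a knock-in, and no group with intact Hey1 was analysed here. The sample titles name no treatment, and they do not say how the knockout and knock-in were brought about. The cells were grown in endothelial medium with serum, and the labels do not spell out 3KR. The sources used here do not give the age or number of the mice, the Cre driver or how the cells were purified. No label says that libraries of 1 genotype came from separate mice or cultures. The p-values therefore set the genotype difference against the spread among these libraries, and that spread may be technical. Values are FPKM, fragment counts divided by transcript length and by the mapped fragments in the library, a scale per length that allows levels of different genes to be compared, and the depth of the libraries is unknown.

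Hey1 itself was listed at 5.71, 5.24 and 4.87 FPKM in HEY1-3KR KI 1 to 3, against 2.21, 2.16 and 2.25 FPKM in HEY1-WT KI 1 to 3. Knocked-out and knocked-in transcripts are not separated in this value, so it does not check the knockout. The label of endothelial cells was set against marker genes. All 10 endothelial markers were present, with a summed level of 368 to 377 FPKM in HEY1-3KR KI and 216 to 227 FPKM in HEY1-WT KI, led by Cdh5 (VE-cadherin) and Cldn5 (claudin-5). The 14 macrophage and monocyte markers summed to more, 4800 to 5014 FPKM in HEY1-3KR KI and 3901 to 3973 FPKM in HEY1-WT KI. They were led by Lyz2, lysozyme, at 3482 ± 121 FPKM in HEY1-3KR KI and 3138 ± 51.3 FPKM in HEY1-WT KI, and Marco, a scavenger receptor, at 819.5 ± 29.2 FPKM in HEY1-3KR KI and 396.1 ± 22.5 FPKM in HEY1-WT KI. Ptprc (CD45), the marker of all leukocytes, read 3.08 ± 0.107 FPKM in HEY1-3KR KI and 1.96 ± 0.0675 FPKM in HEY1-WT KI. In bulk RNA fewer cells of a type and less RNA per cell cannot be told apart, and the part of these marker levels in the integrin results was not tested.

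All 6 subunits passed the filter on low values, which asked for 1 FPKM or more in 3 or more libraries. In limma all 6 differed between the genotypes, with 4 subunits higher in HEY1-3KR KI and 2 lower. Itgam was 5.18-fold higher, Itgal 3.06-fold, Itga4 2.01-fold and Itgb2 1.17-fold, whereas Itgb7 was 9.32-fold lower and Itgax 1.87-fold lower, as ratios of mean FPKM. Among all 11427 genes tested, 53.2% changed, 29.9% higher and 23.4% lower, at a Benjamini-Hochberg adjusted p below 0.05. The balance of these directions depended on scaling, with 3413 genes higher and 2671 lower on the deposited scale. Median-of-ratios scaling gave 3016 higher against 3097 lower, and quantile normalization gave 2912 against 3292. The FPKM of the genotypes did not overlap for any of the 6 subunits, and likewise in 61.2% of all genes tested. Ranked by the size of the log2 fold change among the genes tested, Itgb7 stood at 25, Itgam at 31, Itgal at 247, Itgax at 634, Itga4 at 1105 and Itgb2 at 4425. The order of mean FPKM in HEY1-3KR KI was Itgb2, Itgam, Itgax, Itgal, Itga4 and Itgb7, and in HEY1-WT KI it was Itgb2, Itgax, Itgam, Itgb7, Itgal and Itga4. In neither order did the libraries of neighbouring subunits overlap.

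**Figure D1:**
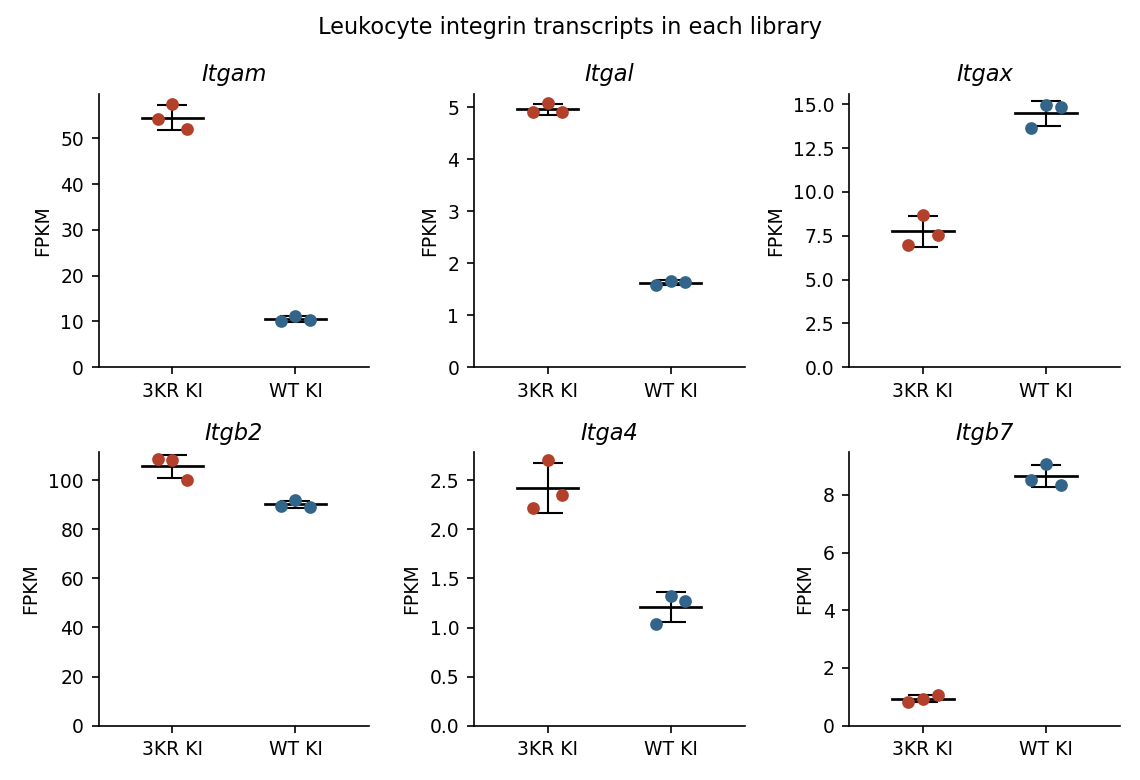
FPKM of the 6 leukocyte integrin subunits in each library, with HEY1-3KR KI at the left of each panel and HEY1-WT KI at the right; points are libraries, long bars are means and short bars span 1 SD (n = 3 per genotype). In each panel the points of the 2 genotypes do not overlap, with Itgam at 51.9 to 57.4 FPKM in HEY1-3KR KI against 10.0 to 11.3 FPKM in HEY1-WT KI and Itgb7 at 0.803 to 1.05 FPKM in HEY1-3KR KI against 8.34 to 9.07 FPKM in HEY1-WT KI.

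The shared beta chain Itgb2 was the most abundant of the 6 in both genotypes and the least changed. It read 108.4, 108.3 and 100.2 FPKM in HEY1-3KR KI 1 to 3, against 89.3, 91.9 and 89.1 FPKM in HEY1-WT KI 1 to 3. The lowest HEY1-3KR KI library lay above the highest HEY1-WT KI library. The log2 fold change on the log2(FPKM + 1) scale was 0.23 ± 0.0394 (SE; limma, Benjamini-Hochberg adjusted p = 0.0013). Itgb2 lies on chromosome 10 at 77530329 to 77565708 (GRCm38, plus strand). Of its neighbours, Fam207a had a log2 fold change of 0.1 and did not pass (limma, Benjamini-Hochberg adjusted p = 0.13), and Pttg1ip fell by 0.13 (adjusted p = 0.0086 in limma).

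Itgam, the alpha chain of Mac-1 that binds Icam1, fibrinogen and the complement fragment iC3b, was the subunit that rose most. It read 54.3, 57.4 and 51.9 FPKM in HEY1-3KR KI 1 to 3, against 10.0, 11.3 and 10.3 FPKM in HEY1-WT KI 1 to 3. Each HEY1-3KR KI library was far above every HEY1-WT KI library, and the means were 54.5 ± 2.75 FPKM in HEY1-3KR KI and 10.5 ± 0.643 FPKM in HEY1-WT KI (SD, n = 3 each). The log2 fold change was 2.27 ± 0.0531 (limma, Benjamini-Hochberg adjusted p = 1.2e-08). The gene spans 128062640 to 128118491 on chromosome 7 (GRCm38, plus strand). GENCODE M21 places a further gene model, Gm49368, at 128062683 to 128128160 on the same strand. It overlaps Itgam, runs past its end and stops before the start of Itgax. Of the 50-base words of Itgam transcripts, 66.3% also occur in Gm49368. Gm49368 was listed at 1.38, 1.43 and 1.15 FPKM in HEY1-3KR KI 1 to 3, against 0.0554, 0 and 0 FPKM in HEY1-WT KI 1 to 3, so its mean was 2.42% of that of Itgam in HEY1-3KR KI and 0.175% in HEY1-WT KI.

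Itgax, the alpha chain of complement receptor 4, moved the opposite way. It read 6.97, 8.69 and 7.57 FPKM in HEY1-3KR KI 1 to 3, against 13.6, 14.9 and 14.8 FPKM in HEY1-WT KI 1 to 3. The 3 HEY1-3KR KI libraries were all lower, and the log2 fold change of -0.83 had an SE of 0.0725 (limma, Benjamini-Hochberg adjusted p = 2e-05). Itgax (chromosome 7, 128129526 to 128150657, plus strand) starts 11034 bases past the end of Itgam, so the subunit that rose most and one of the 2 that fell are adjacent genes read in the same direction. On the other side of Itgam, Trim72 averaged 0.41 FPKM in HEY1-3KR KI and 0.507 FPKM in HEY1-WT KI and was below the filter. The next alpha chain of the cluster, Itgad, starts 23275 bases past the end of Itgax and was listed at 0 in 5 libraries and at 0.0954 FPKM in HEY1-3KR KI 2. Itgax shares 8.02% of its 50-base words with Itgad. Itga4 shares 7.51% with other genes, with 7.32% of its words found in Cerkl, and Itgb2 shares 1.05%. Itgal and Itgb7 share none with another gene.

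Itgal, the alpha chain of LFA-1 through which leukocytes bind Icam1 and Icam2, rose too, and in both genotypes it was the least abundant beta-2 partner apart from Itgad. It read 4.90, 5.09 and 4.90 FPKM in HEY1-3KR KI 1 to 3, against 1.58, 1.66 and 1.63 FPKM in HEY1-WT KI 1 to 3. Replicates lay close together in both genotypes (SD 0.109 FPKM in HEY1-3KR KI and 0.0443 FPKM in HEY1-WT KI), and the log2 fold change was 1.18 ± 0.0487 (limma, Benjamini-Hochberg adjusted p = 2.3e-07). Itgal lies 727502 bases before Itgam on the same chromosome, at 127296139 to 127335137. Its listed neighbours Sephs2 and Zfp768 had log2 fold changes of -0.09 and -0.05, neither past the threshold (limma, Benjamini-Hochberg adjusted p = 0.16 and 0.49).

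The makeup of the beta-2 alpha chains therefore differed between the genotypes. Of the summed FPKM of Itgam, Itgax, Itgal and Itgad, Itgam held 81.1% ± 0.843 in HEY1-3KR KI and 39.5% ± 0.982 in HEY1-WT KI (SD, n = 3 each). Itgax held 11.5% ± 0.853 in HEY1-3KR KI and 54.4% ± 0.953 in HEY1-WT KI, and Itgal 7.38% ± 0.236 in HEY1-3KR KI and 6.10% ± 0.135 in HEY1-WT KI. The libraries of the genotypes did not overlap in any of these shares. The ratio of Itgam to Itgax was 7.08 ± 0.618 in HEY1-3KR KI and 0.728 ± 0.0306 in HEY1-WT KI, so the most abundant alpha chain was Itgam in HEY1-3KR KI libraries and Itgax in HEY1-WT KI libraries. The summed alpha chains stood at 63.7% ± 2.46 of Itgb2 in HEY1-3KR KI and 29.6% ± 1.10 in HEY1-WT KI.

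Subunits that pair in 1 receptor did not change by the same amount. Itgam stood at 51.6% ± 1.49 of Itgb2 in HEY1-3KR KI and 11.7% ± 0.518 in HEY1-WT KI, and its log2 difference from Itgb2 was 2.04 higher in HEY1-3KR KI. The same quantity, HEY1-3KR KI minus HEY1-WT KI, was 0.96 for Itgal and -1.05 for Itgax. For Itgb7, which does not pair with Itgb2, it was -2.55. The log2 difference of Itga4 from Itgb7 was 2.96 higher. With a pseudocount of 0.1 in place of 1 the difference was 4.05 for Itga4 and Itgb7 and -3.32 for Itgb7 and Itgb2. For each of these 5 combinations the 3 HEY1-3KR KI libraries lay apart from the 3 HEY1-WT KI libraries, with an exact two-sided permutation p of 0.1 (0.1 after Benjamini-Hochberg adjustment over the 5), the smallest that 3 against 3 libraries allow.

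**Figure D2:**
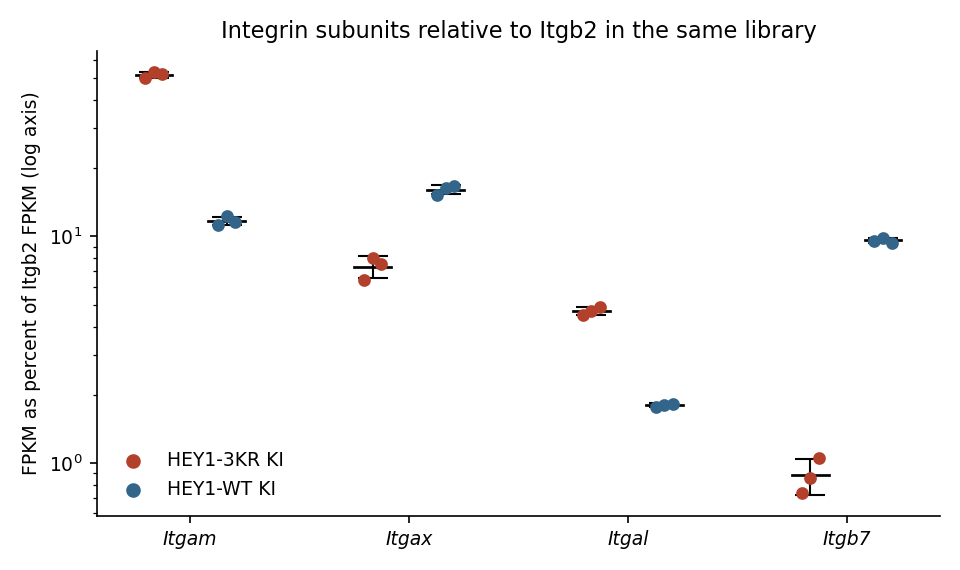
FPKM of Itgam, Itgax, Itgal and Itgb7 as a percent of Itgb2 FPKM in the same library, on a log axis, with HEY1-3KR KI left of HEY1-WT KI for each gene; points are libraries, with the mean and 1 SD (n = 3 per genotype). Itgam reached 50.1% to 53.0% in HEY1-3KR KI against 11.3% to 12.3% in HEY1-WT KI, and Itgb7 0.741% to 1.05% in HEY1-3KR KI against 9.36% to 9.88% in HEY1-WT KI.

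Itgb7, the beta chain of the receptors for Madcam1 and E-cadherin, had the largest change of the 6. It read 0.803, 0.928 and 1.05 FPKM in HEY1-3KR KI 1 to 3, against 8.52, 9.07 and 8.34 FPKM in HEY1-WT KI 1 to 3. HEY1-3KR KI libraries sat near the filter of 1 FPKM, and the gene entered the test through its HEY1-WT KI values. The log2 fold change was -2.32 ± 0.0628 (limma, Benjamini-Hochberg adjusted p = 2.6e-08), and with a pseudocount of 0.1 in place of 1 it was -3.1. Itgb7 lies on the minus strand of chromosome 15 at 102215994 to 102233405, with Zfp740 ending 383 bases from its 3′ end and Rarg, a retinoic acid receptor, 1532 bases beyond its 5′ end. Zfp740 rose by 0.16 on the log2 scale (adjusted p = 0.006) and Rarg fell by 0.63 (limma, Benjamini-Hochberg adjusted p = 2.5e-06), to 11.9 ± 0.181 FPKM in HEY1-3KR KI, against 18.9 ± 0.591 FPKM in HEY1-WT KI.

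Itga4, the alpha chain that Itgb7 shares with Itgb1, rose while Itgb7 fell. It read 2.22, 2.704 and 2.35 FPKM in HEY1-3KR KI 1 to 3, against 1.03, 1.32 and 1.27 FPKM in HEY1-WT KI 1 to 3. The lowest HEY1-3KR KI library was above the highest HEY1-WT KI library, and the log2 fold change was 0.63 ± 0.0767 (limma, Benjamini-Hochberg adjusted p = 0.00014). Itga4 stood at 264% ± 35.5 of Itgb7 in HEY1-3KR KI and at 14.0% ± 1.63 in HEY1-WT KI, so the alpha chain exceeded the beta chain in HEY1-3KR KI libraries and was below it in HEY1-WT KI libraries. Itga4 (chromosome 2, 79255426 to 79333114, plus strand) overlaps Cerkl at its 3′ end, which read 0.0508 ± 0.0184 FPKM in HEY1-3KR KI and 0.0772 ± 0.0411 FPKM in HEY1-WT KI, and the strand setting of the counting is not given. Its upstream neighbour Ube2e3 rose by 0.19 on the log2 scale (limma, Benjamini-Hochberg adjusted p = 0.011), and Neurod1 on the other side was at 0 in HEY1-3KR KI and averaged 0.0104 FPKM in HEY1-WT KI.

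The other partners of these chains were set beside them. Itgb1, the second beta chain of Itga4 and the main beta chain of matrix receptors, rose 1.14-fold to 392 ± 12.2 FPKM in HEY1-3KR KI, against 343.6 ± 12.1 FPKM in HEY1-WT KI (log2 fold change 0.19 ± 0.0387; limma, Benjamini-Hochberg adjusted p = 0.0031). Itga9, the closest relative of Itga4 and a partner of Itgb1, rose to 7.03 ± 0.156 FPKM in HEY1-3KR KI, against 4.61 ± 0.403 FPKM in HEY1-WT KI (log2 fold change 0.52). Itgae, the second alpha chain of Itgb7, averaged 0.0477 ± 0.0153 FPKM in HEY1-3KR KI and 0.0249 ± 0.0192 FPKM in HEY1-WT KI and was below the filter.

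The bases upstream of the starts of Itgam, Itgax and Itgb7 are shown because 2 adjacent genes of 1 cluster moved in opposite directions and Itgb7 changed most. RefSeq promoter windows on GRCm38.p6 were matched for 4 of the 6 subunits, and each line gives the 250 bases before the annotated start, 5′ to 3′ on the gene's own strand. For Itgax and Itgb7 the start used by that table lies inside the gene span given above. Capitals mark matches to GAGGAA or its reverse complement TTCCTC, the core letters of sites for PU.1 (Spi1), the myeloid transcription factor.
Itgam, chr7:128062390-128062639, plus strand: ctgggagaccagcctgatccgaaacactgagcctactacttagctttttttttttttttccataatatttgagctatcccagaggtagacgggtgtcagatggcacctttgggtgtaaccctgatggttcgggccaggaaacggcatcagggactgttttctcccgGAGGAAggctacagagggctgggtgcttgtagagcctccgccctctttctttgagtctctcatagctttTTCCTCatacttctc
Itgax, chr7:128129300-128129549, plus strand: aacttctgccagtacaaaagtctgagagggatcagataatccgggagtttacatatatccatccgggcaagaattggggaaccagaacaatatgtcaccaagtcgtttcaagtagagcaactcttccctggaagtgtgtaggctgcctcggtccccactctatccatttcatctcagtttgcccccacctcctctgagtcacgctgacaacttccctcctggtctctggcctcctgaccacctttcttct
Itgb7, chr15:102231936-102232185, minus strand: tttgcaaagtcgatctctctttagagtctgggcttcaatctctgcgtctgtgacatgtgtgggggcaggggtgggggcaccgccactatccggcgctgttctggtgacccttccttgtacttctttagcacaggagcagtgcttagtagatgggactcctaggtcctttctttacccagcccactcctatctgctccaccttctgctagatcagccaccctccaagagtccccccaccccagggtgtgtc

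Itgam held 2 matches to the PU.1 core, 1 on each strand, while Itgax, Itgb7 and Itga4 held 0 in these windows, and 23.3% of all 32851 RefSeq windows of this length held at least 1. The other motifs searched on both strands were the E-box CACGTG and the related CACGCG, letters that HEY proteins and other helix-loop-helix factors bind, and the RUNX letters TGTGGT and TGCGGT. The only match was 1 TGTGGT in the Itga4 window, as ACCACA on the strand of the gene. These motifs occur in 6.02% (CACGTG), 7.62% (CACGCG), 14.0% (TGTGGT) and 5.1% (TGCGGT) of all windows. No motif overlapped another in these 4 windows. A match to letters is a description of the sequence and not a binding site.

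Genes with the profile most like each subunit were named by the root mean square difference of centred log2(FPKM + 1) values over the 6 libraries, the 3 nearest per subunit. With only 2 genotypes the measure mostly follows the size of the change. Itgam lay nearest to Cd163, a scavenger receptor of macrophages, at 0.0568, with Cd163 at 41.1 ± 1.23 FPKM in HEY1-3KR KI and 7.46 ± 0.276 FPKM in HEY1-WT KI, and next to Tgfbi (0.0639) and Fmo2 (0.0713). Itgal lay nearest to Kit (0.0195), Smtn (0.0284) and Col15a1 (0.0292). Itgax lay nearest to Ahnak (0.0295), Map1b (0.0321) and Niban1 (0.0539). Itgb7 lay nearest to Serpinb9b (0.0894), Adh7 (0.0961) and H2-M1 (0.098). Itgb2 lay nearest to Golm1 (0.00941), Twsg1 (0.0144) and Sgms1 (0.0153). Itga4 lay nearest to Ssh2 (0.0158), Wdfy4 (0.03) and Gas2l3 (0.0318).

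Of 16 ligand genes listed, 10 passed the filter, of which 7 rose, Vcam1 and Jam3 fell and Fn1, fibronectin, did not pass the threshold. The share changed was 90.0% of those tested, beside 53.2% of all genes, and the median log2 fold change was 0.28, beside 0.02 over all genes tested. C3, the source of iC3b, rose 3.32-fold to 10.1 ± 1.12 FPKM in HEY1-3KR KI, against 3.04 ± 0.332 FPKM in HEY1-WT KI, with a log2 fold change of 1.45. Cdh1, E-cadherin, the ligand of the Itgae and Itgb7 receptor, rose 2.90-fold to 7.22 ± 0.349 FPKM, Icam2, the constitutive LFA-1 ligand of endothelium, 1.87-fold to 8.54 ± 0.370 FPKM, and F11r, junctional adhesion molecule A, 1.66-fold to 29.8 ± 1.53 FPKM. Jam2, a junctional adhesion molecule that binds VLA-4, had a log2 fold change of 0.30, and Jam3, which binds Mac-1, one of -0.45. Icam1 rose 1.22-fold to 14.9 ± 0.734 FPKM. Vcam1, the endothelial ligand of VLA-4, fell to 23.6 ± 0.494 FPKM in HEY1-3KR KI, against 28.8 ± 0.639 FPKM in HEY1-WT KI. Madcam1, the ligand of the Itga4 and Itgb7 receptor, averaged 0.00676 FPKM in HEY1-3KR KI and was listed at 0 in all HEY1-WT KI libraries.

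Of 16 tested genes that switch integrins on or hold them back from inside the cell, 8 rose, 2 fell and 6 did not pass, with a median log2 fold change of 0.10. The share changed, 62.5%, was near the 53.2% of all genes tested. With median-of-ratios scaling 4 fell. Fermt3, the kindlin of blood cells that binds beta-chain tails, rose 1.78-fold to 17.97 ± 0.715 FPKM in HEY1-3KR KI, against 10.1 ± 0.488 FPKM in HEY1-WT KI. Rasgrp2, the exchange factor that loads the GTPase Rap1, rose 2.46-fold to 1.80 ± 0.141 FPKM, and Fyb, the adaptor ADAP, 1.42-fold to 7.27 ± 0.731 FPKM. Rasgrp2 averaged 0.730 FPKM in HEY1-WT KI and entered the test through its HEY1-3KR KI values. Rap1a and Rap1b, the GTPases themselves, had log2 fold changes of 0.30 and 0.26. Itgb1bp1, which binds the beta-1 tail and holds it inactive, fell to 6.73 ± 0.507 FPKM in HEY1-3KR KI, against 11.2 ± 0.356 FPKM in HEY1-WT KI. Apbb1ip, which links Rap1 to talin, fell by 0.20 on the log2 scale. Tln1, talin itself, averaged 105.1 ± 4.59 FPKM in HEY1-3KR KI and 103.4 ± 5.65 FPKM in HEY1-WT KI, with an interval of -0.09 to 0.13 for the log2 fold change.

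Of 15 tested signalling genes downstream of the receptors, 9 rose, Src, Ptk2b and Vcl fell and Syk, Fgr and Ptk2 did not pass. Their median log2 fold change was 0.20 and 80.0% of them changed, beside 53.2% of all genes tested. Lcp2, the adaptor SLP-76, rose 2.07-fold to 11.7 ± 0.481 FPKM in HEY1-3KR KI, against 5.65 ± 0.202 FPKM in HEY1-WT KI. Lyn, a Src family kinase of blood cells, rose 1.88-fold to 34.7 ± 0.996 FPKM in HEY1-3KR KI, against 18.4 ± 0.461 FPKM in HEY1-WT KI. Vav1, a Rac exchange factor of blood cells, rose 1.73-fold, Fcer1g, an ITAM adaptor, 1.54-fold and Plcg2, a phospholipase C, 1.45-fold. Of 7 tested transcription factors listed for these genes, 5 rose, none fell in limma (0 fell at an unadjusted p below 0.05 too) and Runx1 and Cebpb did not pass. The median for these factors was 0.36 and 71.4% changed, beside the 53.2% of all genes tested. Without HEY1-WT KI replicate 3, 2 of these factors fell, and with quantile normalization 1 fell. Spi1, which encodes PU.1, rose 1.69-fold to 29.4 ± 1.43 FPKM in HEY1-3KR KI, against 17.4 ± 1.20 FPKM in HEY1-WT KI. Irf8 and Ikzf1, both factors of blood cell development, rose 2.24-fold and 2.63-fold, and Gabpa and Cebpa 1.31-fold and 1.21-fold. Runx3, which was below the filter, averaged 1.06 ± 0.0562 FPKM in HEY1-3KR KI and 0.325 ± 0.054 FPKM in HEY1-WT KI.

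**Figure D3:**
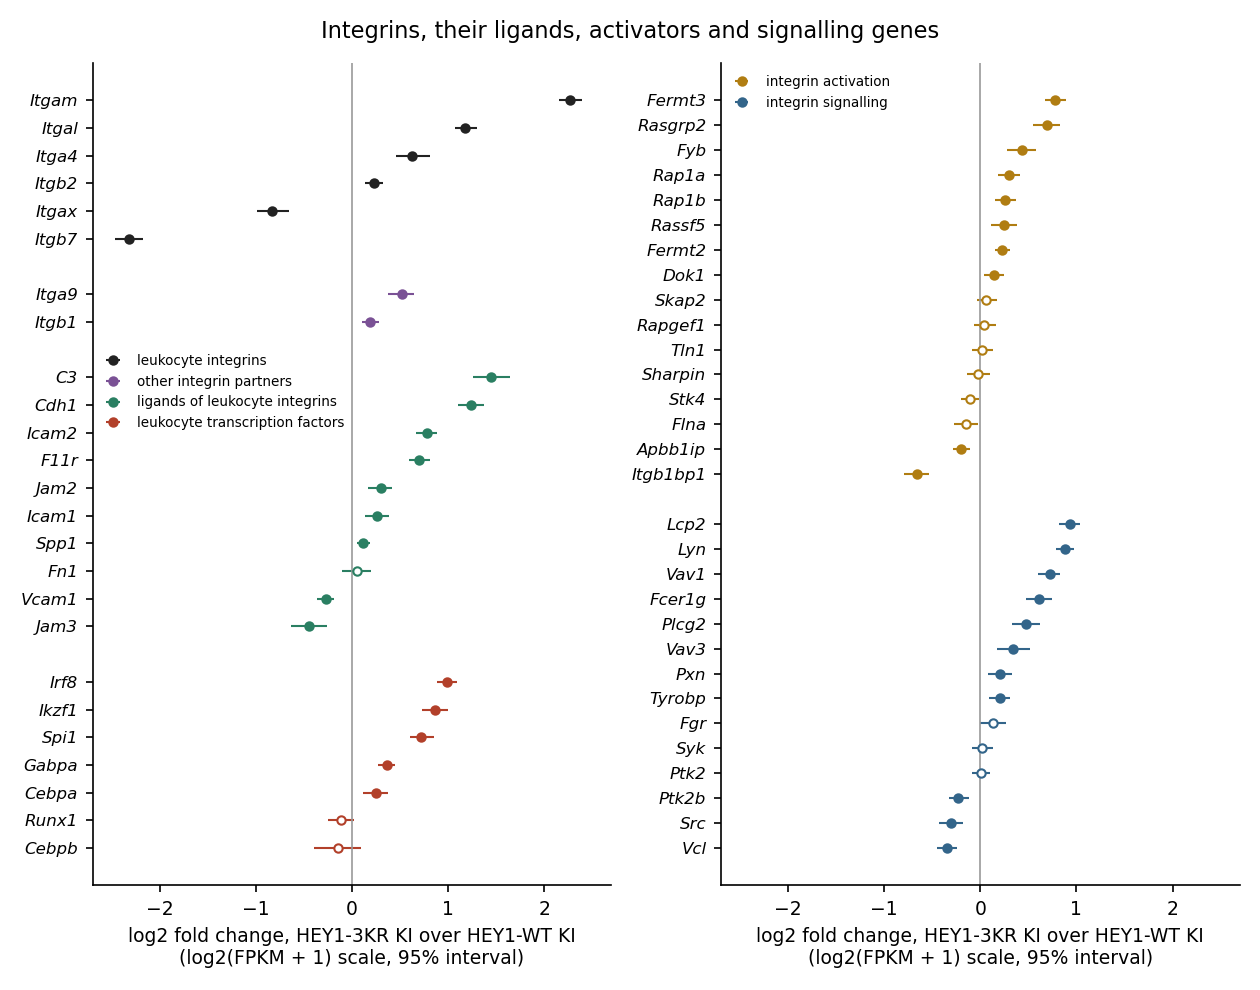
Log2 fold change of HEY1-3KR KI over HEY1-WT KI on the log2(FPKM + 1) scale for tested integrins, their ligands, activators, signalling genes and transcription factors; bars are 95% intervals from limma and filled points passed an adjusted p of 0.05; 14 of the 15 signalling genes are drawn. Itgam at 2.27 and Itgb7 at -2.32 lie at the ends of the range, and the activation and signalling genes drawn lie between -0.66 and 0.93.

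The other marker lists were measured beside the integrins. Of the 14 macrophage and monocyte markers, 12 passed the filter and all 12 rose in limma. Their log2 fold changes ran from 0.15 for Lyz2 to 3.43 for Cx3cr1, the fractalkine receptor, with a median of 0.87. The share changed was 100% of those tested, beside 53.2% of all genes tested. Cx3cr1 averaged 0.818 FPKM in HEY1-WT KI and entered the test through its HEY1-3KR KI values. Ccr2 and Ly6c2, markers of inflammatory monocytes, were below the filter at 0.0959 and 0.628 FPKM in HEY1-3KR KI, against 0.0256 and 0.116 FPKM in HEY1-WT KI. Of the 10 endothelial markers, 9 rose, Emcn did not pass and none fell in limma (0 at an unadjusted p below 0.05). The share of endothelial markers changed was 90.0%, beside the same 53.2%. No marker in the lists that had an entry was at 0 in all 6 libraries.

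Markers of other blood cells were low. Dendritic cell markers summed to 2.95 to 2.98 FPKM in HEY1-3KR KI and 1.87 to 2.09 FPKM in HEY1-WT KI, led by Zbtb46 at 1.18 FPKM in HEY1-3KR KI and 1.21 FPKM in HEY1-WT KI and by Clec9a at 1.19 FPKM in HEY1-3KR KI and 0.561 FPKM in HEY1-WT KI. Neutrophil markers summed to 3.61 to 4.65 FPKM in HEY1-3KR KI and 3.16 to 4.85 FPKM in HEY1-WT KI, with 2 of 8 markers having no entry. S100a8 averaged 2.64 FPKM in HEY1-3KR KI and 2.50 FPKM in HEY1-WT KI. Csf3r, the receptor of granulocyte colony-stimulating factor, rose 2.14-fold to 1.26 FPKM in HEY1-3KR KI, against 0.591 FPKM in HEY1-WT KI (limma, Benjamini-Hochberg adjusted p = 0.0002). Both levels lay near the filter of 1 FPKM, and Csf3r entered the test through its HEY1-3KR KI values. Ly6g averaged 0.0184 FPKM in HEY1-3KR KI and was at 0 in HEY1-WT KI, and Elane was at 0 in HEY1-3KR KI and averaged 0.0431 FPKM in HEY1-WT KI. Eosinophil markers summed to 1.80 to 2.49 FPKM in HEY1-3KR KI and 0.709 to 0.895 FPKM in HEY1-WT KI. This sum rested on Siglecf, at 1.11 and 0.544 FPKM in HEY1-3KR KI and HEY1-WT KI, and Ear1, at 1.00 and 0.223 FPKM. Prg2 averaged 0.0235 and 0.0209 FPKM in HEY1-3KR KI and HEY1-WT KI, Ccr3 0.0212 and 0.0251 FPKM, and Epx had no entry. No eosinophil marker passed the filter, so the sum does not show a change of eosinophils. T cell markers, a lineage in which Itgal, Itga4 and Itgb7 are known to be abundant, summed to 1.296 to 1.545 FPKM in HEY1-3KR KI and 1.07 to 1.57 FPKM in HEY1-WT KI. The highest of them were Cd2, at 0.614 FPKM in HEY1-3KR KI and 0.706 FPKM in HEY1-WT KI, and Lck, at 0.334 FPKM in HEY1-3KR KI and 0.306 FPKM in HEY1-WT KI. The CD3 chain Cd3e was listed at 0 in HEY1-3KR KI and averaged 0.00418 FPKM in HEY1-WT KI. None of the 8 T cell markers passed the filter. B cell and plasma cell markers summed to 0.264 to 0.626 FPKM in HEY1-3KR KI and 0.11 to 1.01 FPKM in HEY1-WT KI, led by Cd79b and Jchain. NK cell markers summed to 0.291 to 0.639 FPKM in HEY1-3KR KI and 0.196 to 0.606 FPKM in HEY1-WT KI, led by Eomes and Gzma. Mast cell and basophil markers summed to 16.2 to 16.5 FPKM in HEY1-3KR KI and 6.66 to 7.38 FPKM in HEY1-WT KI. Kit, also known from lung capillary endothelium, held 14.4 FPKM of this in HEY1-3KR KI and 5.87 FPKM in HEY1-WT KI, and Mcpt8 1.67 FPKM in HEY1-3KR KI and 0.614 FPKM in HEY1-WT KI.

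Markers of non-blood cells were measured too. Fibroblast markers summed to 1110.6 to 1127.5 FPKM in HEY1-3KR KI and 575 to 581 FPKM in HEY1-WT KI, led by Col1a1 and Col1a2. Epithelial markers, which include the ligand gene Cdh1, summed to 424 to 633 FPKM in HEY1-3KR KI and 118 to 223 FPKM in HEY1-WT KI, led by Scgb1a1 and Sftpc. Scgb1a1 read 258, 104 and 76.5 FPKM in HEY1-3KR KI 1 to 3, against 18.8, 31.7 and 112 FPKM in HEY1-WT KI 1 to 3. These values overlapped, and Scgb1a1 did not pass (limma, Benjamini-Hochberg adjusted p = 0.057). Of the 8 epithelial markers tested, 7 rose, 87.5%, beside 53.2% of all genes tested that changed. Epcam, 1 of the 7, averaged 0.896 FPKM in HEY1-WT KI and entered the test through its HEY1-3KR KI values. Smooth muscle and pericyte markers summed to 1000.0 to 1032 FPKM in HEY1-3KR KI and 986 to 1009.8 FPKM in HEY1-WT KI, led by Acta2 and Tagln. An exact two-sided permutation test gave p = 0.1, the smallest possible, for the macrophage, dendritic cell, eosinophil, mast cell, endothelial, fibroblast and epithelial sums (0.171 after Benjamini-Hochberg adjustment over 12 lists), and p = 0.2 to 1 for the others.

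**Figure D4:**
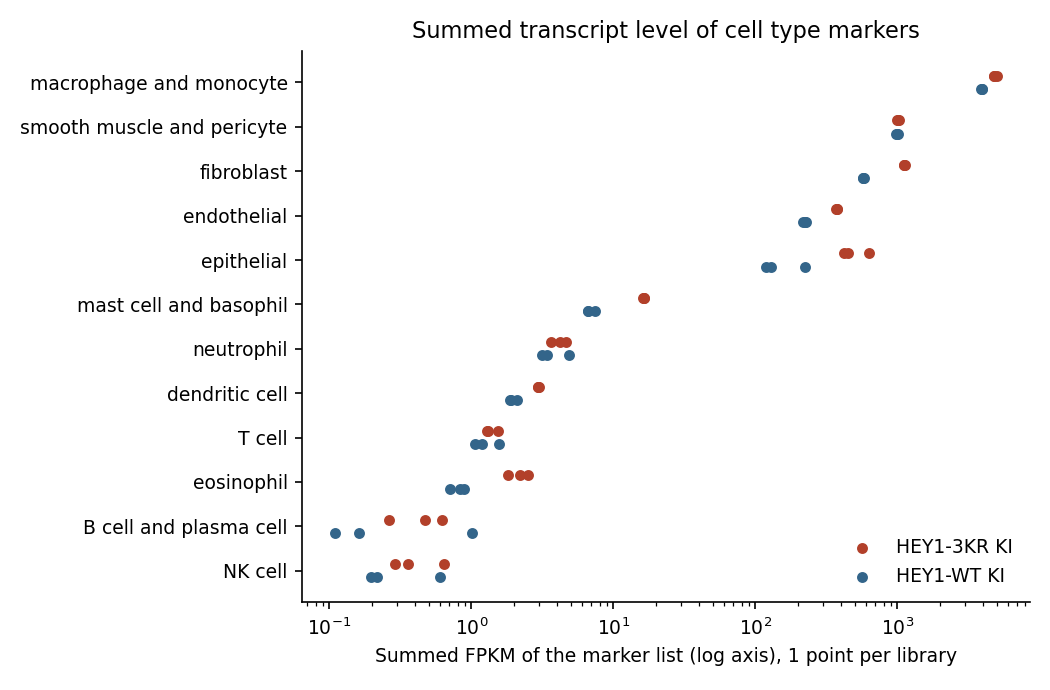
Summed FPKM of each cell type marker list, on a log axis, 1 point per library, with HEY1-3KR KI above HEY1-WT KI in each row. Macrophage and monocyte markers lie at 4800 to 5014 FPKM in HEY1-3KR KI and 3901 to 3973 FPKM in HEY1-WT KI, above the endothelial sums of 368 to 377 FPKM in HEY1-3KR KI and 216 to 227 FPKM in HEY1-WT KI, and T, B and NK cell markers lie under 2 FPKM in every library.

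Set against Ptprc and against the summed macrophage and monocyte markers of the same library, 5 of the 6 subunits kept the direction of their change and Itgb2 did not. Lyz2 held 71.3% ± 0.871 of that sum in HEY1-3KR KI and 79.6% ± 0.917 in HEY1-WT KI, and single markers of the list rose by very different amounts, from 1.11-fold to 22.7-fold. Of the 12 markers tested, 10 rose by a larger factor than Itgb2, 6 by a larger factor than Itga4, and Cx3cr1 by a larger factor than Itgal and Itgam, so the direction of these 4 subunits depends on the marker they are set against. Per FPKM of Ptprc, Itgb2 stood at 3426% ± 47.8 in HEY1-3KR KI and 4591% ± 240.7 in HEY1-WT KI, a log2 difference of -0.42, and per summed macrophage and monocyte markers the log2 difference was -0.08. Itgam was 3.29-fold higher per Ptprc and 4.18-fold higher per summed macrophage and monocyte markers. Itgal was 1.95-fold and 2.47-fold higher on the same scales, and Itga4 1.28-fold and 1.62-fold. Itgax stood at 251% ± 25.6 of Ptprc in HEY1-3KR KI and 738% ± 54.9 in HEY1-WT KI, a log2 difference of -1.56. Itgb7 stood at 30.2% ± 4.92 of Ptprc in HEY1-3KR KI and 441% ± 35.1 in HEY1-WT KI, a log2 difference of -3.88. These scales were chosen after the values were seen, and each had an exact permutation p of 0.1.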

How the data were processed

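RNA was sequenced from 6 MLEC libraries, 3 per genotype; per the labels' protocols, total RNA was primed with random hexamers. Per the file headers, the values deposited by the authors are FPKM, in 1 table of 17463 gene entries. HISAT2 2.1.0, StringTie 1.3.3b, SAMtools 1.9, FastQC 0.19.7 and the build mm10 are named in the submitters' processing notes. The sources used here give neither annotation nor strand setting. For 12 of 17450 symbols with several entries, the one with the highest mean was used. Column sums were 258650 to 265967 FPKM. Read totals are not given: the best step of 1 fragment put 48.5% to 59.6% of low values within 0.1 of a whole number (20% if evenly spread), so whole fragments and depth were not recovered, no count test was run and no counting interval is given. No pair of libraries held identical values.

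The 11427 genes that reached 1 FPKM in 3 or more libraries were tested on log2(FPKM + 1), a scale that understates changes of low genes, with limma 3.58.1 in R 4.3.3 (lmFit, eBayes with a variance trend, two-sided, no covariates), with Benjamini-Hochberg adjustment over all genes tested; the fit was also tested on simulated data. Folds are ratios of mean FPKM. Pair differences and marker sums used exact permutation tests (Python 3.11.15, scipy 1.17.1). Positions and promoter sequences are from RefSeq on GRCm38.p6, which mm10 stands for, and shared 50-base words and strands from GENCODE M21. Named genes were the subunits and their partners, up to 6 genes past the threshold with the largest change per pathway list, the 2 highest per marker list, the 3 nearest profiles per subunit and genomic neighbours. Icam1, Vcam1, Madcam1, Fn1, Hey1, Emcn, Epcam, Tln1, Apbb1ip, Runx3, Ptprc, Cx3cr1, Ccr2, Ly6c2, Cd3e, Ly6g, Elane, Epx, Prg2, Ccr3 and Gm49368, and genes given by name only in counts, were named beyond that rule after their values were seen. The subunits and lists were chosen with earlier results of these data known. One signalling gene is in the counts and is not reported here by name. Alternatives changed the pseudocount, filter, scaling, variance model, pairing and libraries used.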

Additional observations from a re-analysis of the deposited data

How the results depend on the processing

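All 6 subunits kept their direction and an adjusted p below 0.05 in limma under each change of pseudocount, filter, scaling, variance model or libraries that gave a value; Itgb7 had no value with 1 FPKM required in all 6 libraries. Across these the log2 fold change ran from 2.23 to 2.36 for Itgam, 1.12 to 1.55 for Itgal, 0.56 to 0.95 for Itga4, 0.19 to 0.27 for Itgb2, -0.90 to -0.76 for Itgax and -3.1 to -2.28 for Itgb7. Set against Ptprc or against summed macrophage and monocyte markers, scales added after seeing the data, Itgb2 reversed to -0.42 and -0.08, and both markers had risen. Pair differences kept their sign with a pseudocount of 0.1. The count of genes changed, 6084 as reported, lay between 5168 and 6748; the smallest counts came with 1 library left out. The count of activation genes that fell was 4 with median-of-ratios scaling, in place of 2, and that of transcription factors that fell was 1 with quantile normalization, in place of 0, and 0 to 2 when 1 library was left out, with 2 without HEY1-WT KI replicate 3. The smooth muscle and pericyte sum (HEY1-3KR KI over HEY1-WT KI) went to 0.993 with median-of-ratios scaling, in place of 1.02. With 1 library left out the ratio ran from 0.778 to 3.35 for B cell and plasma cell markers and from 0.955 to 2.08 for NK cell markers, lists whose sums are near 0; it was below 1 for the first list without HEY1-3KR KI replicate 1 (0.866), HEY1-WT KI replicate 2 (0.814) or 3 (0.778), and for the second without HEY1-3KR KI replicate 1 (0.955). The cause of these shifts was not tested.

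No pairing of the libraries by replicate number was seen. Deviations of same-numbered libraries from their genotype means correlated at -0.188, 0.253 and -0.273, and 2 of 6 libraries correlated best with their own number. With 3 libraries per genotype this check is too small to settle whether libraries were prepared in pairs. With the replicate number as a block, 6140 genes changed, and the log2 fold changes of the subunits stayed at 2.27, -0.83, 1.18, 0.23, -2.32 and 0.63 for Itgam, Itgax, Itgal, Itgb2, Itgb7 and Itga4, all past the threshold. The block cannot bring the permutation tests below 0.25.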
